A study of Mus musculus with 4 samples.

Results

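The cell cycle genes described here are 50 genes, 21 used at the start and during S phase and 29 used in G2 and mitosis, chosen by symbol from the 32285 features of the annotation. All 50 were present, each as 1 feature. They were followed in single-cell RNA sequencing of molar tooth organs from wild-type mice (genotype label WTB6, bred as C57BL/6J), taken from the maxilla and from the mandible of embryos at E15.5 and of pups at P1. The sample titles give the embryonic age as E15 and the dissection protocol gives P0/P1 for the pups. Each of the 4 combinations of stage and jaw was 1 library made from 6 pooled tooth organs, so no difference below has a replicate check, no test was run and every interval covers counting error only.

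A dividing cell copies its DNA in S phase and separates the copies in mitosis, and many of the genes that serve these steps are transcribed only when they are needed. Genes of S phase are typically switched on by E2F factors at the end of G1, while genes of G2 and mitosis are held off in resting cells by the DREAM complex and switched on later by complexes with B-MYB and FOXM1. These complexes act through promoter elements called CHR, and many of the promoters hold CCAAT boxes as well. In the molar, growth of the epithelial bell and of the dental papilla depends on division, whereas the ameloblasts and odontoblasts that secrete enamel and dentin have left the cycle.

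The S members comprise the MCM helicase (Mcm2, Mcm3, Mcm4, Mcm5, Mcm6, Mcm7), its loading and activation factors (Cdc6, Cdt1, Cdc45, Gins2), the sliding clamp and its partners (Pcna, Pclaf, Rfc2), nucleotide supply (Rrm1, Rrm2, Tyms), and Slbp, Ung, Uhrf1, Hells and Dtl. The G2/M members comprise the mitotic kinases and cyclins (Cdk1, Ccnb1, Ccnb2, Aurka, Aurkb, Bub1, Ttk) with Cdca3, which serves entry into mitosis, the anaphase machinery (Ube2c, Cdc20), kinetochore and chromosome proteins (Cenpe, Cenpf, Ndc80, Nuf2, Birc5, Cdca8, Top2a, Mki67), and proteins of the spindle and of cytokinesis (Tpx2, Nusap1, Hmmr, Aspm, Kif11, Kif20b, Kif23, Prc1, Anln, Ect2, Ckap2).

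The promoters of the 3 most abundant S members and the 3 most abundant G2/M members that hold a searched motif are shown because CHR and E2F matches were spread unequally between the phases. Each runs from 150 bases before to 30 bases from the start of the gene, 5′ to 3′ on the strand of the gene, from RefSeq (GRCm38.p6), and capitals mark the motifs found, CHR (TTTGAA, read TTCAAA on the other strand), CCAAT (on the other strand ATTGG) and E2F, searched as TTGGCGC, as the variant TTCCCGC, as the variant TTCGCGC and as the variant TTGCCGC (on the other strand, for example, GCGGGAA). Pclaf (chr9:65890173-65890352, plus strand), Slbp (chr5:33652545-33652724, minus strand) and Pcna (chr2:132253151-132253330, minus strand) are S members. Top2a (chr11:99024160-99024339, minus strand), Ube2c (chr2:164769779-164769958, plus strand) and Cenpf (chr1:189688057-189688236, minus strand) are G2/M members.
Pclaf: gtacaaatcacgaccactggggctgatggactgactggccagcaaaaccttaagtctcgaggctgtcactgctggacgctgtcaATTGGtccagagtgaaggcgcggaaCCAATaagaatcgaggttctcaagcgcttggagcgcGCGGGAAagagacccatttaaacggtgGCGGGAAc
Slbp: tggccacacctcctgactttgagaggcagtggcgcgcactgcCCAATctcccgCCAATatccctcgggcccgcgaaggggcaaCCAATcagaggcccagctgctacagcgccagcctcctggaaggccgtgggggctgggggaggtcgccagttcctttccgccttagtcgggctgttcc
Pcna: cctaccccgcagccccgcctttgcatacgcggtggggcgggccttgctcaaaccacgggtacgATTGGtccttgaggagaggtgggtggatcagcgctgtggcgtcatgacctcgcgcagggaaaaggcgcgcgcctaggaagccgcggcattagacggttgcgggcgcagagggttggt
Top2a: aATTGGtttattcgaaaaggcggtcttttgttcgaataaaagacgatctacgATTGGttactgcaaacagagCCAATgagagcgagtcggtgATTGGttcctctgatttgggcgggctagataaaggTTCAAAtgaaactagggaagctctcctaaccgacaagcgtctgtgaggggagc
Ube2c: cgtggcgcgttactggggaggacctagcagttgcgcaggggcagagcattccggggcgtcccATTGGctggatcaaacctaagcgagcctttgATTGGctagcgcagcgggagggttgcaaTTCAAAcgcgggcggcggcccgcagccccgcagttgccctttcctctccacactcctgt
Cenpf: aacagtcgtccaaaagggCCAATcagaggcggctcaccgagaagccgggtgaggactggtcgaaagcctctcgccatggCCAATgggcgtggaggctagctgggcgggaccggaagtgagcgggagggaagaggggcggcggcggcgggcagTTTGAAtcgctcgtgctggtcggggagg
Pclaf carried 2 CCAAT boxes and 2 E2F matches, while Slbp and Pcna carried only CCAAT boxes in these 180 bases. The 3 G2/M promoters each had 1 CHR close to the start of the gene and at least 2 CCAAT boxes before it.

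Over the wider window of 250 bases before to 50 after the start, on both strands, CHR occurred in 21 of the 27 G2/M members with a RefSeq promoter (77.8%), in 2 of 18 S members (11.1%) and in 18.1% of 27025 genes. E2F matches occurred in 12 of the 18 S members (66.7%), in 5 of the 27 G2/M members (18.5%) and in 9.69% of all genes. CCAAT boxes did not divide the phases, with 72.2% of S and 77.8% of G2/M members against 37.9% of all genes. CHR and CCAAT stood together in 66.7% of G2/M members and in 7.12% of all genes. The promoters of the members were also richer in G and C, with mean contents of 58.8% (S) and 59.9% (G2/M) against 53.6%. A match describes the letters of the window and was not tied to binding of any factor.

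The libraries held 10885 (E15.5 maxillary), 7947 (E15.5 mandibular), 18707 (P1 maxillary) and 19401 (P1 mandibular) barcodes. Barcodes with at least 1000 UMIs were kept, a UMI being a tag that marks 1 captured RNA molecule. The P1 libraries shared 7131 barcodes, against 28 to 70 for every other pair of libraries. Their UMI totals were higher in the maxillary library by a log2 ratio with a median of 2.07, and 95% of the barcodes lay under 2.18. The shared barcodes were dropped from the P1 mandibular library, which removed 6690 of its cells, and which jaw those cells came from cannot be told apart. This left 10073, 6911, 17040 and 10120 cells with medians of 9596, 11234, 4019 and 10390 UMIs. The P1 maxillary library then consisted of 7129 cells with shared barcodes (median 12089 UMIs) and 9911 other cells (median 2545 UMIs), and its results are given over all cells and, for the main ones, over each set. The sets also held different cell classes. In P1 maxillary clusters of papilla-like and ameloblast-like cells 93.5% to 96.9% of the cells had shared barcodes. The shared share was 0.217% in an epithelium-like cluster led by Cyp2a5 and Cyp2g1, genes of the nasal lining, 0.775% in an epithelium-like cluster led by Reg3g and Adh7, and 0.125% in a neuron-like cluster led by Uncx and Lhx2.

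Depth differed between cells, so 2000 UMIs were drawn at random from every cell, and the 700, 662, 2948 and 1016 cells below that depth were left out. A cell with at least 3 UMIs over the 29 G2/M members was scored G2/M, and of the rest a cell with at least 3 UMIs over the 21 S members was scored S. The score is a cut through a range and not a count of dividing cells. Its names say which members passed the cut and do not give the phase of a cell. In mesenchyme-like cells 3.46% to 6.58% held 2 or 3 G2/M UMIs and 14.1% to 23.7% held 2 or 3 S UMIs, so the S score depended on the cut more than the G2/M score. Cells scored G2/M often passed the S cut too, from 35.2% in P1 mandibular epithelium-like cells to 60.4% in E15.5 maxillary mesenchyme-like cells. Clusters were formed within each library without the members and were named from marker genes as "-like" classes.

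Cells scored S or G2/M made up 30.7% of the E15.5 maxillary, 28.6% of the E15.5 mandibular, 22.6% of the P1 maxillary and 18.8% of the P1 mandibular cells. Both P1 shares lay below both E15.5 shares. Without thinning the shares were 68.9%, 66.7%, 44.4% and 55.8%, and the order of the P1 libraries, which differed in depth, turned over. The shared and the other barcodes of the P1 maxillary library gave 20.4% and 24.8%. These shares rest on 7112 shared and 6980 other cells, as nearly all cells that the depth cut left out of this library were other barcodes. Every share of the other barcodes therefore describes their deeper cells only, and the part of this selection in the differences between the sets was not tested.

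Classes that are known to leave the cycle gave low shares, although some erythroid-like clusters led by globin genes were lower still (0.615%, 0.893% and 1.82% in the E15.5 maxillary, E15.5 mandibular and P1 mandibular libraries). Ameloblast-like cells, led by the enamel genes Amelx, Enam and Mmp20, were scored in 4.18% (95% Clopper-Pearson interval 2.02% to 7.56%) of 239 P1 maxillary cells and in 3.66% (2.38% to 5.36%) of 683 P1 mandibular cells. Odontoblast-like cells of the P1 mandibular library, led by Dmp1 and Phex together with the bone genes Bglap and Bglap2, were scored in 6.70% (4.42% to 9.66%) of 388 cells. A P1 maxillary cluster also led by Dmp1, Phex, Bglap and Bglap2 had Ifitm5 among its leading genes as well. With more bone than odontoblast markers there (Bglap2, Bglap and Ifitm5 against Dmp1 and Phex), it was kept as mesenchyme-like, and it was scored in 8.26% of 351 cells. Differentiating muscle-like cells at P1 were scored in 4.44% and 4.92% of 45 and 61 cells. Median depths were 13620 and 12710 UMIs in the ameloblast-like and 18179 in the odontoblast-like cells, all above the medians of their libraries. Of the 8 ameloblast-like cells scored G2/M in the P1 maxillary library, 62.5% ranked among the likely doublets, as did 50% of the 20 in the P1 mandibular library, against 10.5% and 8.05% of the unscored cells. The odontoblast-like cells did not share this, at 9.09% of the 22 scored G2/M against 8.56% of the unscored cells. The part of free RNA in these shares was not tested.

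**Figure D1:**
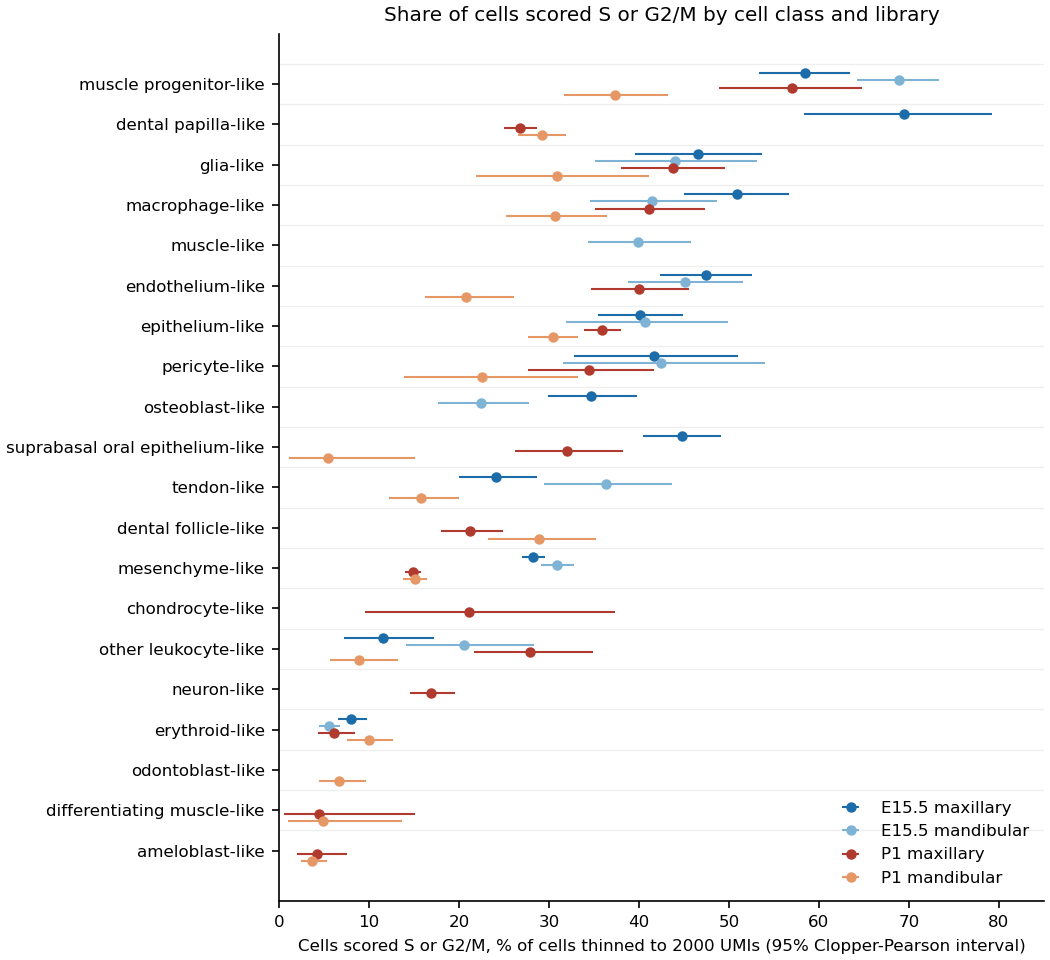
Share of cells scored S or G2/M (x axis, % of cells thinned to 2000 UMIs) in each cell class (y axis), with 1 point per library and 95% Clopper-Pearson intervals. Muscle progenitor-like cells reached 37.3% to 68.9%, ameloblast-like cells 3.66% and 4.18%, and P1 mandibular points (light orange) lay to the left of the E15.5 points in most classes.

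Among the classes that were present in all 4 libraries, muscle progenitor-like cells, marked by Pax7, Myf5 and Myod1, had the highest shares. They were scored in 58.4% (53.3% to 63.4%) of the E15.5 maxillary, 68.9% (64.2% to 73.3%) of the E15.5 mandibular, 57.0% (48.9% to 64.8%) of the P1 maxillary and 37.3% (31.7% to 43.2%) of the P1 mandibular cells. The P1 mandibular share lay below the others, and it was the only muscle progenitor-like value with more S than G2/M cells (21.1% against 16.2%). At E15.5 most mandibular muscle cells lay in a cluster led by Myf5 and Pax7 and in a Myog-led cluster scored in 38.1%, whereas most maxillary ones lay in 1 cluster with both Pax7 and Myog among its leading genes. Over all muscle cells the shares were closer at E15.5, 56.5% and 55.7%, with 45.3% and 31.6% at P1. The P1 maxillary muscle cells gave 34.7% over the shared and 55.9% over the other barcodes.

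Endothelium-like, macrophage-like, glia-like and pericyte-like cells, which line and surround vessels, clear debris and sheathe nerves, were scored in 41.7% to 50.9% of cells at E15.5 in both jaws. The range leaves out an E15.5 mandibular cluster of 60 thinned cells that was named with the macrophage-like class but led by Dcstamp, Ocstamp and Acp5, genes of osteoclasts (40% scored). Without it the mandibular macrophage-like share was 42.1%, and with it, as in the counts by class, 41.5%. Endothelium-like, macrophage-like, glia-like and pericyte-like cells all held more cells scored G2/M than S in both E15.5 libraries. In the E15.5 maxillary library these were 108 against 41 macrophage-like, 64 against 31 glia-like and 36 against 14 pericyte-like cells. The endothelium-like cells were scored G2/M in 35.9% against 11.5% S in the E15.5 maxillary and in 37.3% against 7.79% in the E15.5 mandibular library. Their total share was 47.4%, 45.1%, 40% and 20.8% (E15.5 maxillary, E15.5 mandibular, P1 maxillary, P1 mandibular). The P1 maxillary endothelium-like share joined 29.8% over the shared barcodes (log2 P1/E15.5 of -0.67, -1.17 to -0.19) and 48.6% over the others (0.04, -0.35 to 0.41). The sets also stood apart in pericyte-like (20% shared, 45.0% other) and glia-like cells (25.7% of 35 shared, 46.2% of 260 other), and in macrophage-like cells the shared barcodes were higher (47.1% against 38.2%). Other leukocyte-like cells moved differently in the jaws, with 11.5% and 27.9% in the maxillary libraries and 20.6% and 8.91% in the mandibular libraries. Most P1 maxillary cells of that class lay in a cluster led by monocyte genes such as Ccr2 (31.7% scored, 30.5% of its cells among the likely doublets), and the P1 mandibular cells in a cluster led by neutrophil genes such as Ngp and Camp, so different clusters held the class at P1. The maxillary class was scored in 16.4% of its shared and 33.3% of its other barcodes.

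The dental papilla, the mesenchyme under the enamel epithelium, held clusters with very different shares. Its E15.5 maxillary cluster of 82 cells, led by Fgf3, was scored in 69.5% (58.4% to 79.2%), with 47.6% G2/M and 22.0% S. An E15.5 mandibular cluster led by Lypd1, Dlx4 and Ambn also had papilla markers as its closest match but was left unnamed. Of its 99 thinned cells, 12 were scored S and 13 G2/M. At P1 papilla-like cells were scored in 26.8% of 2234 maxillary and 29.2% of 1155 mandibular cells. The class did not hold the same clusters in both jaws. A maxillary cluster led by Gabrg3 and Pappa carried the name, whereas a P1 mandibular cluster led by Cntn6, Gabrg3 and Gldn had papilla markers as its closest match but was too near to general mesenchyme to be named (23.4% of 701 cells scored). In the P1 mandibular library the class was an average over unlike clusters. A cluster led by Fgf3, Pcp4 and Fgf10 was scored in 54.1% (49.6% to 58.6%) of 497 cells, and a cluster led by Fabp7 and Enpp6 in 10.3% (8.11% to 12.9%) of 658 cells. The P1 maxillary library held an Fgf3-led papilla-like cluster at 28.0% (25.2% to 30.9%), a cluster led by Gabrg3 and Pappa at 31.8%, and a cluster led by Tnr and Dab1 at 6.14% (3.68% to 9.54%). In the Tnr-led cluster the summed G2/M level stood below the summed S level, with a log2 ratio of -1.15, against 1.27 in the Fgf3-led cluster. Dental follicle-like cells, the sac around the tooth, were scored in 21.2% of P1 maxillary and 28.9% of P1 mandibular cells.

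Within the P1 epithelium, clusters also ranged upward from the ameloblast-like shares. In the mandibular library the share was 21.5% in a cluster led by Odam, 30.5% in a cluster led by Jph4, a stratum intermedium marker, and 42.1% (35.1% to 49.4%) in a cluster led by Fgf9 and Edar, a signal and a receptor of the enamel epithelium. The Fgf9-led cluster was scored G2/M in 34.5% and S in 7.61% of its 197 cells. In the maxillary library a cluster of 72 cells led by Tmem212 and Sntn, genes of ciliated cells, was scored in 50% (38.0% to 62.0%), with 44.4% G2/M and 5.56% S, and 49.3% of its cells ranked among the likely doublets. Its G2/M UMIs were led by Cdk1 (13.7%), Top2a (12.5%) and Cdc20 (11.4%), and its S UMIs by Rfc2 (15.1%). None of its cells had a shared barcode. The clusters led by Cyp2a5 and by Reg3g were scored in 36.1% and 37.6%. Shallow epithelium-like clusters led by Gm42418, a gene that overlaps ribosomal RNA, gave 55.1% in the P1 maxillary and 44.0% in the P1 mandibular library, at medians of 1654 and 1593.5 UMIs, and only their deepest 167 and 109 cells entered these shares.

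Of 109 clusters with at least 50 thinned cells, 94 had more cells scored G2/M than S. The exceptions included mesenchyme-like clusters led by Gpr83 and Il33 (20.6% S, 13.3% G2/M) and by Grm8 and Adarb2 (17.9% S, 14.9% G2/M) in the E15.5 mandibular library, a cluster led by Alx1 and Pax3 (11.3% S, 8.53% G2/M) in the P1 maxillary library, and the P1 mandibular muscle progenitor-like cells. As the G2/M score was read first and from more genes, this count describes the score and not the lengths of the phases.

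**Figure D2:**
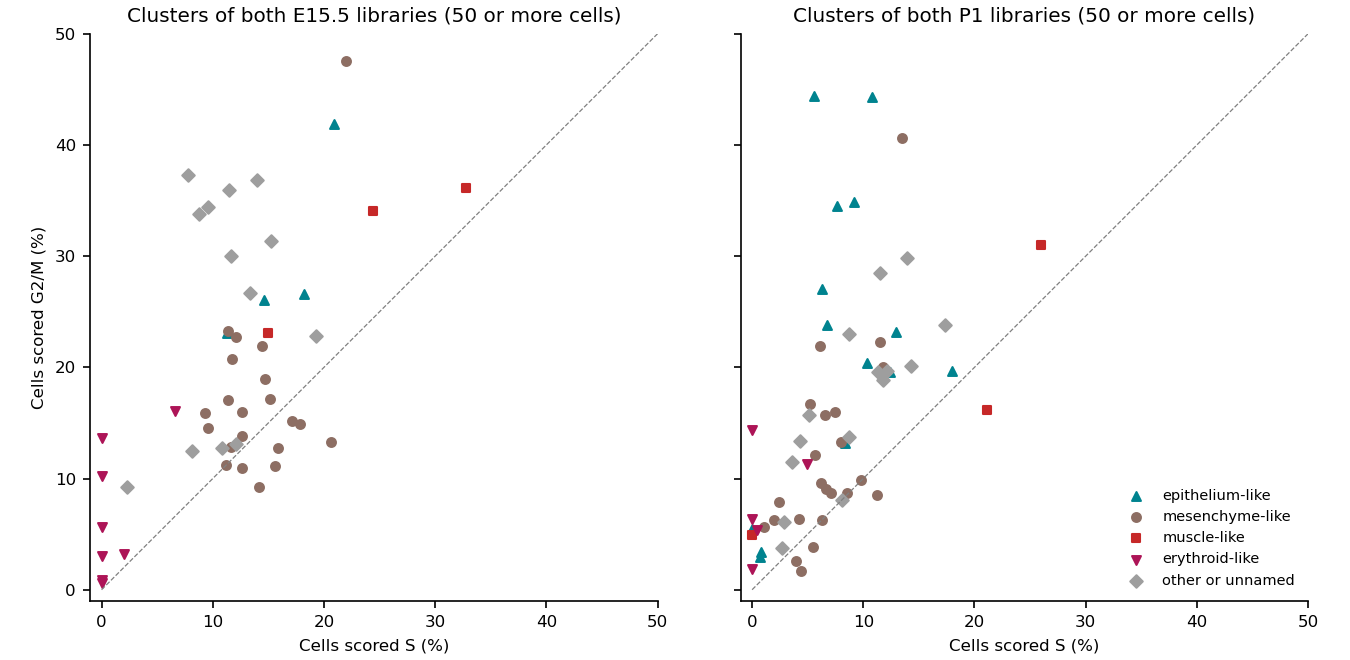
Cells scored S (x axis, %) against cells scored G2/M (y axis, %) in each cluster with at least 50 thinned cells, for both E15.5 libraries (left) and both P1 libraries (right), with the dashed line at equality. Of 109 clusters 94 had more G2/M than S cells, and at P1 several epithelium-like clusters stood far above the line.

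Epithelium-like and mesenchyme-like cells both had fewer scored cells at P1 than at E15.5, in each jaw. Epithelium-like cells were scored in 42.7% (39.5% to 45.9%) of 947 E15.5 maxillary, 40.7% (31.9% to 49.9%) of 123 E15.5 mandibular, 32.6% (30.8% to 34.4%) of 2564 P1 maxillary and 19.6% (17.9% to 21.5%) of 1827 P1 mandibular cells. The log2 ratio of the shares, P1 over E15.5, was -0.39 (-0.56 to -0.21) in the maxillary and -1.05 (-1.48 to -0.59) in the mandibular epithelium. The shared and the other barcodes of the P1 maxillary library gave 29.7% and 37.1%, and over the other barcodes alone the log2 ratio was -0.20, with an interval of -0.41 to 0.01. Without the clusters led by Cyp2g1, Reg3g or Tmem212 the P1 maxillary share was 30.4% of 1840 cells and the log2 ratio -0.49. Ameloblast-like cells were 683 of the 1827 P1 mandibular and 239 of the 2564 P1 maxillary epithelium-like cells, and no E15.5 cluster had that name. With them left out the mandibular log2 ratio was -0.48. Suprabasal oral epithelium-like cells were 523 of the 947 E15.5 maxillary (44.7% scored) and 250 of the 2564 P1 maxillary cells. In the epithelium-like cells of no further class name the share changed by less, with log2 ratios of -0.16 (-0.40 to 0.09) in the maxillary and -0.42 (-0.85 to 0.04) in the mandibular comparison, and both intervals included 0. The E15.5 mandibular epithelium-like cells lay in a single cluster that matched suprabasal and general epithelial markers equally. Suprabasal-like cells were therefore not set apart at E15.5 in the mandibular comparison, as they were in the maxillary one. Without thinning, at the depth of each library, the epithelial shares were 76.6%, 75.4%, 54.5% and 52.6% in the same order.

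Mesenchyme-like cells were scored in 28.9% (27.7% to 30.1%) of 5549 E15.5 maxillary, 30.5% (28.8% to 32.1%) of 2994 E15.5 mandibular, 18.4% (17.6% to 19.2%) of 8577 P1 maxillary and 18.3% (17.2% to 19.4%) of 5129 P1 mandibular cells. The P1 shares lay below both E15.5 shares without overlap of the intervals. The log2 ratio of the shares was -0.65 in the maxillary and -0.74 in the mandibular mesenchyme. P1 maxillary cells with shared barcodes gave 16.8% and the other cells 20.49%. In cells that were mesenchyme-like but of no named dental, bone or tendon class, the share went from 28.3% to 14.8% in the maxillary and from 30.9% to 15.05% in the mandibular libraries, and the shared and other P1 maxillary barcodes differed there, at 7.83% and 19.9%. At P1 this class held clusters whose closest match was dental, namely a maxillary cluster led by Grik1 and Slc6a15 (6.59% of 1381 cells scored, 98.9% of its cells with shared barcodes), the maxillary Dmp1-led cluster and the mandibular Cntn6-led cluster. At E15.5 it held clusters closest to dental follicle, led by St6galnac5 and Lama1 in the maxillary and by Tfap2b and Itgbl1 in the mandibular library. Without thinning, mesenchyme-like cells were scored in 75.2%, 83.3%, 47.1% and 65.3% (E15.5 maxillary, E15.5 mandibular, P1 maxillary, P1 mandibular), where the depth of the libraries differs and no order is read from the shares.

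By class, the P1 share was lower in 10 of 11 maxillary classes and in 9 of 10 mandibular classes with at least 50 thinned cells at both stages, but the interval of the log2 ratio lay below 0 in only 3 of the 11 and 6 of the 10. The exceptions were the other leukocyte-like cells in the maxillary and the erythroid-like cells in the mandibular libraries. Over the P1 maxillary barcodes not shared with the mandibular library, 7 of 11 classes were lower at P1.

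In epithelium-like cells the jaws lay closer to each other at E15.5 than at P1, and in mesenchyme-like cells they were close at both stages. The log2 ratio of shares, maxillary over mandibular, was 0.07 (-0.36 to 0.52) in epithelium-like and -0.07 (-0.19 to 0.04) in mesenchyme-like cells at E15.5. At P1 it was 0.73 (0.55 to 0.91) in epithelium-like and 0.01 (-0.11 to 0.13) in mesenchyme-like cells. With P1 maxillary cells limited to shared barcodes the epithelial ratio was 0.59 (0.39 to 0.80) and the mesenchymal ratio -0.12 (-0.26 to 0.01). With shared barcodes kept in both P1 libraries the mandibular epithelial share was 23.6% instead of 19.6%, and the ratios were 0.46 (0.32 to 0.61) and 0.02 (-0.08 to 0.12). Leaving the ameloblast-like cells and the named suprabasal cells out, the remaining epithelium-like cells were scored in 35.9% of maxillary and 30.4% of mandibular cells at P1, a log2 ratio of 0.24. The maxillary cells of that comparison included the clusters led by nasal genes, and over all epithelium-like cells the log2 ratio without those clusters was 0.63 (0.44 to 0.83). By class, the E15.5 intervals lay off 0 in 3 of 11 classes. Osteoblast-like cells were scored in 34.7% of maxillary and 22.4% of mandibular cells (log2 0.63, 0.18 to 1.09), tendon-like cells in 24.1% and 36.4% (log2 -0.59, -1.06 to -0.12), and erythroid-like cells had a log2 ratio of 0.54 (0.09 to 0.99). At P1 the intervals lay above 0 in 6 of 13 classes. The largest gaps were those of suprabasal oral epithelium-like cells, at 32% of 250 maxillary and 5.45% of 55 mandibular cells (log2 2.55, 0.95 to 4.86), other leukocyte-like (log2 1.65, 0.90 to 2.44) and endothelium-like cells (log2 0.94, 0.48 to 1.42). Erythroid-like cells lay below 0 (log2 -0.70, -1.36 to -0.06). Over the shared barcodes only 3 of 12 intervals lay above 0, with 0.52 (-0.08 to 1.11) in endothelium-like, 0.88 (-0.36 to 2.02) in other leukocyte-like and 0.49 (-0.12 to 1.06) in muscle progenitor-like cells. Dental follicle-like cells were then at -0.70 (-1.27 to -0.14), and mesenchyme-like cells of no further class name at -0.94 (-1.20 to -0.69), against -0.02 over all barcodes. The P1 share was higher in the maxillary library in 9 of 13 classes, in 7 of 12 over its shared and in 10 of 12 over its other barcodes. Jaw, library and the loss of shared barcodes from the mandibular library cannot be told apart at P1.

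The level of a member was its share of the UMIs of a cell class on the CPM scale, which for 3′ tags counts molecules without regard to transcript length. In mesenchyme-like cells Top2a, the topoisomerase that untangles chromosomes, had the highest mean level of the members (171 CPM over the 4 libraries), followed by Pclaf, a partner of the sliding clamp (136 CPM), and the lowest was the replication licensing factor Cdc6 (8.05 CPM). Differences in capture between genes were not tested.

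Every S member was lower at P1 than at E15.5 in epithelium-like and mesenchyme-like cells of both jaws. Of the G2/M members, 26 of 29 were lower in maxillary epithelium-like cells and all 29 in the other comparisons, but most of these differences were under 2-fold. Lower by any amount in both jaws at once were all 21 S and 26 of 29 G2/M members in epithelium-like cells, against 38.1% of all genes. In mesenchyme-like cells these were all 20 S members that passed 10 CPM in both jaws and all 29 G2/M members, against 44.6% of all genes. At least 2-fold lower were 0 of 50 members in maxillary epithelium-like, 15 of 50 in mandibular epithelium-like, 1 of the 49 that passed 10 CPM in maxillary mesenchyme-like and 3 of 50 in mandibular mesenchyme-like cells. Over all genes that passed 10 CPM the same fall was met by 5.19%, 6.78%, 3.91% and 3.17% (maxillary and mandibular epithelium-like, maxillary and mandibular mesenchyme-like). The members' share stood furthest above that of all genes in the mandibular epithelium, and in the maxillary tissues it stood below it. With ameloblast-like, odontoblast-like and Dmp1-led cells left out, 2 members passed in mandibular epithelium-like cells, against 4.25% of all genes, and 0 in mesenchyme-like cells of either jaw, against 3.22% (maxillary) and 2.58% (mandibular). Without the clusters led by Cyp2g1, Reg3g or Tmem212, 3 members passed in maxillary epithelium-like cells, against 7.39% of all genes. No member was at least 2-fold higher in any of the 4 comparisons, where 8.33%, 7.76%, 5.87% and 7.04% of all genes were. The member that did not pass was Cdc6, at 9.97 and 4.78 CPM in maxillary mesenchyme-like cells.

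The P1 maxillary sets gave other counts. Over shared barcodes 5 members were at least 2-fold lower in epithelium-like cells (Mcm3, Mcm5, Rrm2, Cdc6 and Cdt1, all S members), against 7.74% of all genes, and 3 in mesenchyme-like cells (Mcm4, Ung and Dtl), against 5.83%. Over the other barcodes no member was, against 3.94% and 0.726%. None was 2-fold higher over the shared barcodes, against 7.89% and 6.91% of all genes, or over the others, against 12% and 1.27%.

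Over all epithelium-like and all mesenchyme-like cells, the S members were lower by more than the G2/M members in both jaws. In maxillary epithelium-like cells the median log2 ratio P1/E15.5 was -0.68 for S and -0.23 for G2/M members, and in mandibular epithelium-like cells it was -1.14 and -0.81. In mesenchyme-like cells the medians were -0.75 and -0.44 in the maxillary and -0.82 and -0.39 in the mandibular libraries. Over all genes the medians lay between -0.02 and 0.04. The gap between the phases was not seen in the P1 maxillary barcodes that were not shared, with medians of -0.29 (S) and -0.30 (G2/M) in epithelium-like and -0.48 and -0.55 in mesenchyme-like cells, whereas the shared barcodes gave -0.84 and -0.27, and -0.80 and -0.44. Depth differed between these sets, and its part in the gap was not tested. Single classes were divided, as the summed S level was lower by more than the summed G2/M level in 5 of 11 maxillary and 4 of 10 mandibular classes (7 of 10 over the shared and 4 of 11 over the other P1 maxillary barcodes). In maxillary mesenchyme-like cells of no named dental, bone or tendon class the log2 ratios were -1.10 for S and -1.30 for G2/M. They were -1.46 and -1.76 over the shared and -0.47 and -0.56 over the other P1 maxillary barcodes. The same class went the other way in the mandibular libraries, with -0.84 for S and -0.64 for G2/M.

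**Figure D3:**
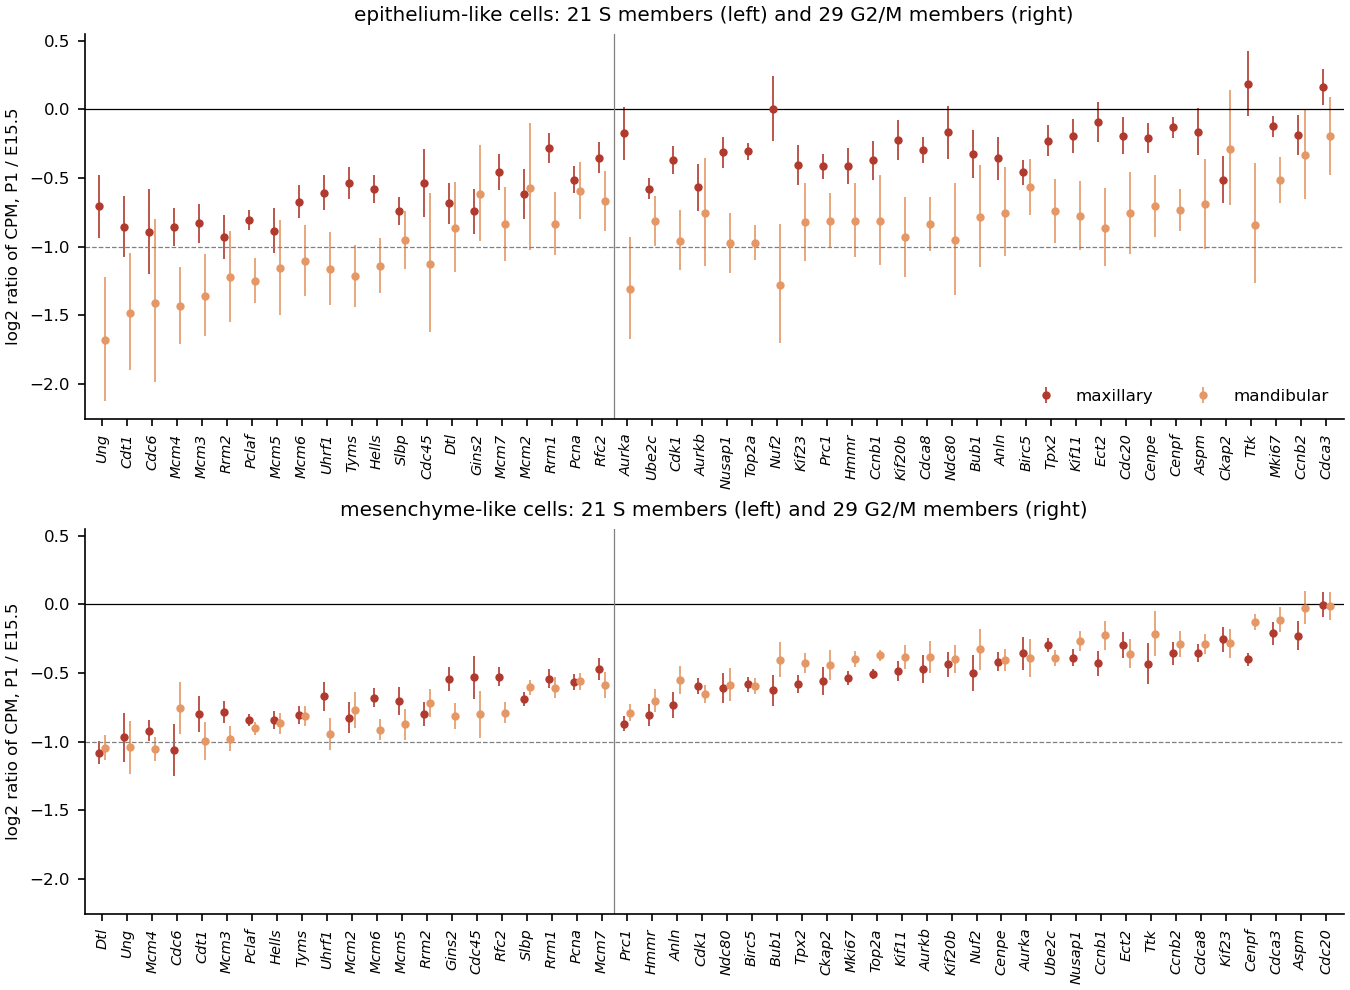
log2 ratio of CPM, P1 over E15.5 (y axis), for each of the 50 members (x axis) in epithelium-like (top) and mesenchyme-like cells (bottom), S members left of the vertical line and G2/M members right, with 95% binomial intervals. In both panels the phases overlapped while the median S member lay below the median G2/M member, 15 members in the mandibular epithelium passed the dashed line at -1, and Cdc20 lay near 0 in mesenchyme-like cells over all cells of each library.

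In epithelium-like cells the largest falls, ranked by the weaker jaw, were those of Rrm2, Cdc6, Mcm5, Mcm4 and Cdt1. Rrm2, the regulated subunit of ribonucleotide reductase, stood at 41.4 and 21.8 CPM in the maxillary and at 35.6 and 15.2 CPM in the mandibular libraries (E15.5, then P1). Its log2 ratios were -0.93 (-1.09 to -0.77) and -1.22 (-1.55 to -0.89). Mcm4, a helicase subunit, went from 56.8 to 31.3 CPM and from 49.9 to 18.5 CPM, and Mcm5, another subunit, from 39.7 to 21.5 and from 32.3 to 14.5 CPM. The licensing factors lay lower in level and moved alike. Cdt1, which loads the helicase, had log2 ratios of -0.86 and -1.48, and Cdc6 of -0.89 and -1.41, the last resting on 32 UMIs at E15.5. The 15 members past 2-fold in mandibular epithelium-like cells were 13 S members and the G2/M members Aurka (-1.31), a spindle kinase, and Nuf2 (-1.28), a kinetochore protein.

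At the other end, ranked by the jaw with the stronger fall, stood Cdca3, Ccnb2, Ckap2, Mki67 and Birc5. Cdca3, which takes part in the destruction of the mitosis inhibitor Wee1, was at 45.3 and 50.7 CPM in the maxillary and at 42.6 and 37.1 CPM in the mandibular epithelium, with log2 ratios of 0.16 (0.03 to 0.29) and -0.20 (-0.48 to 0.09). The proliferation marker Mki67 went from 135 to 124 CPM (log2 -0.12) and from 127 to 88.7 CPM (log2 -0.52). Ccnb2, a mitotic cyclin, was at 41.6 and 36.5, and at 33.0 and 26.2 CPM. Birc5, the chromosomal passenger protein survivin, had log2 ratios of -0.46 and -0.57, and Ckap2, a spindle protein, of -0.51 and -0.29. Ranked by the jaw with the weaker fall instead, the first 5 were Ttk (0.19 and -0.84), Cdca3, Nuf2 (0.01 and -1.28), Ect2, an activator of cytokinesis (-0.09 and -0.86), and Mki67, and only Cdca3 and Mki67 were in both lists.

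In mesenchyme-like cells the largest falls were those of Dtl, Ung, Mcm4, Hells and Pclaf. Dtl, which directs the destruction of Cdt1 in S phase, went from 52.0 to 24.6 CPM in the maxillary and from 51.8 to 25.1 CPM in the mandibular libraries, with log2 ratios of -1.08 (-1.16 to -0.998) and -1.05 (-1.14 to -0.96). It was the only member past 2-fold in both jaws in either tissue, where 1.89% of all genes were lower in mesenchyme-like and 2.91% in epithelium-like cells of both jaws. Ung, which removes uracil from DNA, went from 10.6 to 5.42 and from 12.04 to 5.84 CPM. Pclaf went from 172 to 96.1 CPM and from 179 to 95.6 CPM, with log2 ratios of -0.84 and -0.90. Hells, a chromatin remodeller, had log2 ratios of -0.84 and -0.87, and Mcm4 of -0.92 and -1.05.

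Cdc20, the activator of the anaphase-promoting complex, changed least in mesenchyme-like cells over all cells. It was at 30.2 CPM at both stages in the maxillary libraries and at 30.3 and 30.1 CPM in the mandibular libraries, with intervals of -0.09 to 0.09 and -0.11 to 0.09 on the log2 scale. The P1 maxillary value joined unlike sets, as Cdc20 was at 32.5 CPM in the shared barcodes (log2 0.11, 0.02 to 0.20) and at 19.3 CPM in the others (log2 -0.64, -0.83 to -0.46). The next smallest changes were those of Cdca3 (-0.21 and -0.11), the spindle pole protein Aspm (-0.23 and -0.03), the cytokinesis motor Kif23 (-0.25 and -0.28) and Cdca8 (-0.35 and -0.29), a chromosomal passenger protein. Ranked by the jaw with the weaker fall, Cenpf (-0.40 and -0.13) and Ttk (-0.43 and -0.22) took the places of Kif23 and Cdca8. All of these are G2/M members.

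Of the remaining abundant members, Slbp, which binds histone messenger RNA, was at 117 and 72.7 CPM in maxillary and at 107 and 70.6 CPM in mandibular mesenchyme-like cells (E15.5, then P1). The clamp Pcna went from 91.7 to 61.9 and from 90.2 to 61.1 CPM, and Tyms, which makes thymidylate, from 69.1 to 39.5 and from 69.2 to 39.3 CPM. Both jaws gave nearly the same pair of levels for these S members. Top2a was at 204 and 143, and at 190 and 147 CPM. Ube2c, the ubiquitin-conjugating enzyme of anaphase, was at 107 and 86.8, and at 103 and 78.3 CPM. The kinetochore protein Cenpf was at 108 and 81.9 in maxillary and at 92.0 and 84.0 CPM in mandibular mesenchyme-like cells, with a larger fall in the maxillary (-0.40) than in the mandibular comparison (-0.13).

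Cell cycle genes that are not members were read in 6 sets. All 11 replication genes (such as Orc1, Fen1 and Lig1) in epithelium-like and all 10 that passed in mesenchyme-like cells were below 0 in both jaws, and 11 of 13 mitosis genes (such as Ccna2 and Plk1) were below 0 in both jaws in each tissue, with none of either set past 2-fold in both. Of all genes 38.1% were below 0 in both jaws in epithelium-like and 44.6% in mesenchyme-like cells. In epithelium-like cells 4 of 8 G1 cyclins and kinases were at least 2-fold lower in both jaws, as were 2.91% of all genes. Cdk6, a G1 kinase, went from 97.4 to 43.4 CPM in the maxillary and from 91.7 to 27.9 CPM in the mandibular libraries. The cyclins Ccnd2 (log2 ratios of -1.11 and -1.12), Ccnd3 (-1.34 and -1.56) and Ccne1 (-1.64 and -1.41) were the others. In mesenchyme-like cells Ccne1 (-1.41 and -1.66), Ccne2 (-1.08 and -1.17) and the S phase activator E2f1 (-1.29 and -1.07) passed, against 1.89% of all genes, and Ccnd2 differed in sign between the jaws (-0.06 and 0.28).

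Inhibitors of the cycle did not move together. Cdkn1c (p57), by far the most abundant, went from 2996 to 1073 CPM in maxillary and from 4220 to 1174 CPM in mandibular mesenchyme-like cells, with log2 ratios of -1.48 and -1.85, and fell by 1.81 and 1.89 on the log2 scale in epithelium-like cells. Cdkn1a (p21) went from 16.0 to 76.3 and from 16.0 to 99.0 CPM in mesenchyme-like cells, with log2 ratios of 2.25 and 2.63. At least 2-fold higher in both jaws were 4.82% of all genes in mesenchyme-like and 4.8% in epithelium-like cells. In epithelium-like cells Rb1, the retinoblastoma protein, was higher by 1.35 and 1.80, and Gas1, a growth arrest gene, lower by log2 ratios of -1.05 and -1.47.

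Within a library the summed levels compared epithelium with mesenchyme without a difference in stage or sequencing. The summed G2/M level was higher in epithelium-like cells in the E15.5 maxillary (1945 against 1593 CPM, log2 ratio 0.29), the E15.5 mandibular (1807 against 1548 CPM, 0.22) and the P1 maxillary library (1598 against 1143 CPM, 0.48), and lower in the P1 mandibular library (1059 against 1174 CPM, -0.15). The P1 mandibular ratio turned to 0.21 when ameloblast-like and odontoblast-like cells were left out, and likewise to 0.21 when each cell weighed the same. The summed S levels had log2 ratios of 0.15, -0.05, 0.24 and -0.28, which lay closer to 0 than the G2/M ratios in the first 3 of these libraries and further from 0 in the P1 mandibular library. Members at least 2-fold higher in epithelium-like cells were only Uhrf1, which maintains DNA methylation, in the E15.5 maxillary (57.5 against 25.2 CPM) and P1 maxillary libraries (37.7 against 15.8 CPM), and Ung in the P1 maxillary library (11.9 against 5.42 CPM), where 9.41% and 10.7% of all genes were that much higher. In the mandibular libraries no member was, against 12.2% (E15.5) and 9.92% (P1) of all genes, and none was 2-fold lower in any library, against 13.6%, 14.1%, 12.5% and 14.7%. The shared P1 maxillary barcodes gave 2 members higher, against 9.22%, and none lower, against 13.8%. The other P1 maxillary barcodes gave 3 higher (Uhrf1, Ung and Cdc20), against 16.7%, and none lower, against 12.6%.

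To see in which cells each member was used, its level was compared between cells scored G2/M and cells scored S by a score that left that gene out. S-scored cells held fewer than 3 UMIs over the other G2/M members, so the direction for G2/M members was partly set by the score. All 29 G2/M members were higher in G2/M-scored mesenchyme-like cells in all 4 libraries, with mean log2 ratios from 2.41 (Cdk1) to 5.96 (Cenpf). Cenpf was at 512, 433, 527 and 487 CPM in G2/M-scored cells and at 10.2, 6.57, 8.41 and 6.80 CPM in S-scored cells (E15.5 maxillary, E15.5 mandibular, P1 maxillary, P1 mandibular). The hyaluronan receptor and spindle protein Hmmr (5.91), Aspm (5.35), the mitotic cyclin Ccnb1 (5.26) and Ube2c (5.10) followed. Cdk1, Ttk (2.72) and Top2a (3.08) were the least divided. Their levels in S-scored cells exceeded those in unscored cells by mean log2 ratios of 2.14, 3.29 and 3.45.

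The S members were less uniform, and 11 of 21 were lower in G2/M-scored than in S-scored mesenchyme-like cells in all 4 libraries. S-scored cells held at least 3 UMIs over the other S members, which G2/M-scored cells did not need to hold. A lower level of an S member in G2/M-scored cells was therefore partly set by the score as well. Ung stood furthest toward the S score, at 35.3, 34.9, 36.5 and 36.1 CPM in S-scored and 10.9, 10.2, 5.39 and 5.68 CPM in G2/M-scored cells, with a mean log2 ratio of -2.22. The helicase subunits Mcm3 (-0.82), Mcm2 (-0.81) and Mcm4 (-0.77), and Hells (-0.75), followed. Pclaf was higher in G2/M-scored cells, at 703, 669, 528 and 483 CPM against 152, 187, 188 and 183 CPM in S-scored cells, a mean log2 ratio of 1.73. Rrm2 (1.26), Rrm1 (1.02), Tyms (1.00) and the helicase cofactor Cdc45 (0.58) were also higher in G2/M-scored cells in all 4 libraries. These 5 members were in the S list yet tracked the G2/M score, and in epithelium-like cells 3 S members did so in all 4 libraries. Cells that passed both cuts were scored G2/M, and the part of this order of scoring was not tested.

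**Figure D4:**
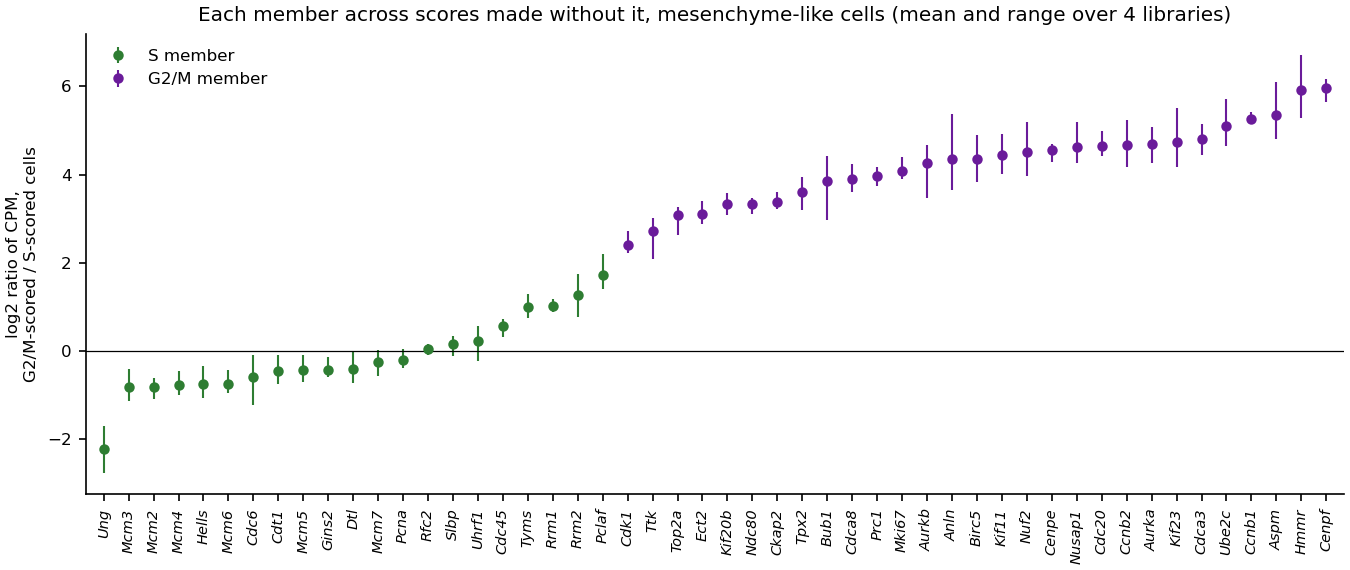
Mean log2 ratio of CPM between G2/M-scored and S-scored mesenchyme-like cells (y axis) for each member (x axis), scored without that member, with bars from the lowest to the highest of the 4 libraries. All 29 G2/M members lay above 2, while S members ran from -2.22 (Ung) to 1.73 (Pclaf).

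Genes outside the members followed the score as well. Of 6328 genes with at least 20 CPM in the G2/M-scored cells of each library, 349 were at least 2-fold higher in G2/M-scored than in unscored mesenchyme-like cells in all 4 libraries and 1 was that much lower. Genes entered this count through the cells in which they were high, so it is a description only. Ranked by the smallest ratio over the libraries, the first 10 were Iqgap3, Depdc1a, Hist1h1b, Esco2, Hist1h2af, Melk, Depdc1b, Hist1h2ap, Ska1 and Sapcd2. Iqgap3, a scaffold protein, was at 51.2, 43.5, 42.2 and 37.6 CPM in G2/M-scored and at 0.350, 0.215, 0.216 and 0.230 CPM in unscored cells. The linker histone gene Hist1h1b reached 1417, 1391, 1010 and 839 CPM against 11.2, 10.6, 5.27 and 5.95 CPM. Histone genes of this kind are used in S phase, and Hist1h1b was far lower in S-scored cells, at 51.1, 67.9, 45.8 and 80.0 CPM. Of the G2/M-scored mesenchyme-like cells 53.2% to 60.4% also passed the S cut, so a cell scored G2/M was not thereby shown to be past S phase.

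Relative to unscored cells, 79 of 6240 genes were at least 2-fold higher in S-scored mesenchyme-like cells in all 4 libraries, and 0 were that much lower. Genes entered this count by at least 20 CPM in the S-scored cells of each library, that is, through the cells in which they were high, so it too is a description only. Ranked by the smallest ratio over the libraries, the first 10 were Slfn9, Tk1, Rad51ap1, Brip1, Tcf19, Clspn, Brca1, Ccne2, Chaf1b and Cenpk, which include thymidine kinase (Tk1), the G1/S cyclin Ccne2 and genes of DNA repair and chromatin assembly, and 7 of the 10 were higher in G2/M-scored than in S-scored cells in all 4 libraries (not Slfn9, Ccne2 and Chaf1b). Slfn9 was at 46.5, 52.4, 51.7 and 59.7 CPM in S-scored and at 3.997, 4.17, 2.04 and 2.26 CPM in unscored cells. For the other direction genes entered by at least 20 CPM in unscored cells, and 6 of these 6254 were at least 2-fold lower in G2/M-scored than in unscored cells in all 4 libraries, Nupr1, Tcea3, Abca1, Kdm7a, Ppp2r2b and Kdm5b, which were named after their values were seen. The stress-response gene Nupr1 was at 9.32, 15.49, 6.24 and 12.8 CPM in G2/M-scored and at 23.6, 37.2, 23.3 and 60.0 CPM in unscored cells.

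Cells scored G2/M had more UMIs than unscored cells in both tissues of all 4 libraries. In mesenchyme-like cells their median UMIs exceeded those of unscored cells by a ratio of 1.38 (E15.5 maxillary), 1.46 (E15.5 mandibular), 1.26 (P1 maxillary) and 1.45 (P1 mandibular), with 1.57 and 1.42 in the shared and the other P1 maxillary barcodes. In epithelium-like cells the ratio was 1.70 and 1.56 at E15.5 and 1.09 and 1.11 at P1, where the shared and the other maxillary barcodes each gave more, 1.23 and 1.56. Cells scored S had ratios of 1.20, 1.25, 0.61 and 1.25 in mesenchyme-like and 1.53, 1.36, 0.95 and 1.09 in epithelium-like cells, in the same order of libraries. The low P1 maxillary values joined sets of unlike depth. The shared and the other barcodes gave 1.21 and 1.17 in mesenchyme-like and 1.24 and 1.20 in epithelium-like cells. Likely doublets were 15.6%, 13.3%, 28.6% and 13.03% of the G2/M-scored against 4.87%, 4.08%, 9.89% and 5.04% of the unscored mesenchyme-like cells, and the part of doublets in these ratios was not tested. As levels are shares of each class's RNA, fewer cycling cells and fewer transcripts per cycling cell cannot be told apart in the summed levels.

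Erythroid-like cells, led by globin genes, had a G2/M level of another composition. They were scored in 8.03%, 5.52%, 6.10% and 9.93% of cells (E15.5 maxillary, E15.5 mandibular, P1 maxillary, P1 mandibular), of which 6.75%, 4.79%, 5.92% and 8.69% were scored G2/M. Ube2c and Nusap1, a spindle protein, made up 55.4%, 74.5%, 65.2% and 30.5% of their G2/M UMIs, against 10.7% to 11.999% in the mesenchyme-like class. Ube2c stood at 191, 174, 179 and 185 CPM there, while Top2a was at 24.8, 9.09, 14.7 and 58.6 CPM and Pcna at 14.3, 6.11, 4.90 and 33.5 CPM. With Ube2c and Nusap1 left out of the score, the G2/M share went from 6.75% to 3.19%, from 4.79% to 1.05%, from 5.92% to 1.26% and from 8.69% to 6.21%, whereas in mesenchyme-like cells it changed from 15.8% to 15.3% in the E15.5 maxillary library.

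**Figure D5:**
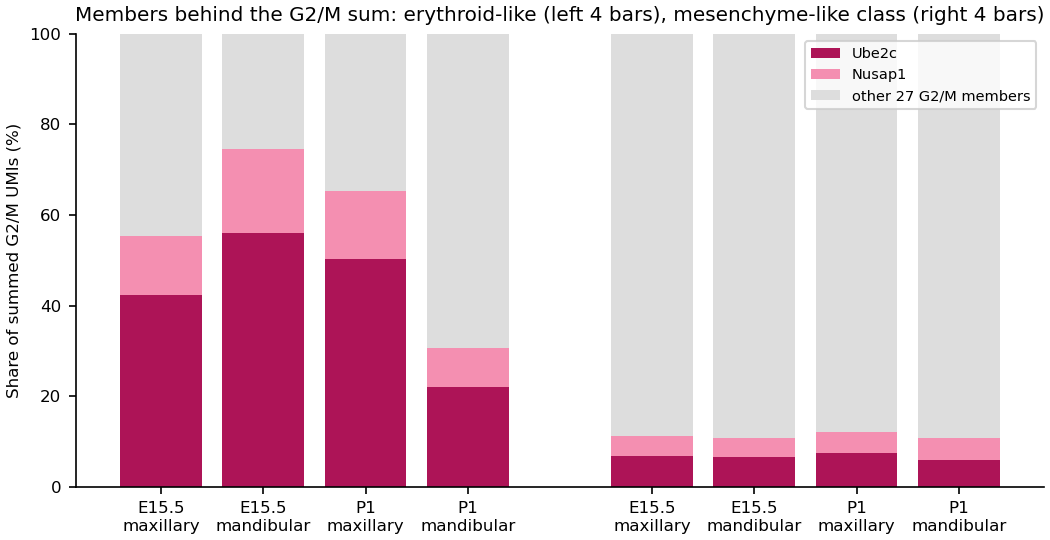
Share of summed G2/M UMIs (y axis, %) that came from Ube2c, Nusap1 and the other G2/M members in erythroid-like cells (left 4 bars) and in the mesenchyme-like class (right 4 bars), 1 bar per library. Ube2c and Nusap1 supplied 30.5% to 74.5% in erythroid-like cells and 10.7% to 11.999% in the mesenchyme-like class.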

How the data were processed

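The 4 libraries were made with 3′ single-cell chemistry (10x Genomics), and the authors deposited UMI counts per gene and barcode, whole numbers without normalization, for which the submitters' processing notes name Cell Ranger 7.0.1 and mm10. The totals were 109723360 (E15.5 maxillary), 86659227 (E15.5 mandibular), 128812956 (P1 maxillary) and 139873101 (P1 mandibular) UMIs. The members and gene lists were chosen with earlier results of these data known.

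Each library was clustered on its own (scanpy 1.11.5, leidenalg 0.10.2, Python 3.11.15) without the members and 371 features that followed them. A class was named from at least 3 detected markers. Doublets were ranked with Scrublet and kept, and removed in an alternative. Levels are summed UMIs on the CPM scale, with a minimum of 10 CPM in either group for a ratio and 20 CPM for genes outside the members. Intervals are exact at 95% (Poisson, Clopper-Pearson, conditional binomial) and cover counting error only. With 1 library per group no test was run, and a call is a 2-fold difference.

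Named genes are the 5 most abundant members of each phase, the 5 largest and 5 smallest falls per tissue by the jaw with the weaker fall (the smallest also by the stronger), the 5 highest and 5 lowest in the phase profile, 10 outside genes per score, and other cell cycle genes past 2-fold in both jaws. The genes named beyond these were chosen after their values were seen. Alternatives changed the depth, the score's cut, the filters, the naming of cells and the treatment of shared barcodes.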

Additional observations from a re-analysis of the deposited data

Results flagged for a closer look

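Some values went opposite ways in the maxillary and the mandibular comparison, and none of these differences was tested. The summed S level of epithelium-like over mesenchyme-like cells had a log2 ratio of 0.15 in the E15.5 maxillary and -0.05 in the E15.5 mandibular library, a difference of 0.20. At P1 it was 0.24 and -0.28, a difference of 0.51. The summed G2/M level at P1 gave 0.48 and -0.15, a difference of 0.63.

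Of the members in epithelium-like cells, 3 had a log2 ratio P1/E15.5 above 0 in the maxillary and below 0 in the mandibular comparison. Cdca3 was at 0.16 and -0.20, a difference of 0.36. Ttk, a spindle checkpoint kinase, was at 0.19 and -0.84, a difference of 1.03. Nuf2 was at 0.01 and -1.28, a difference of 1.28.

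The P1 mandibular barcodes that were dropped as shared held 30154 G2/M and 15803 S UMIs. Of the 5520 with at least 2000 UMIs in both libraries, 5005 (90.7%) had the same score in both, and 704 of the 786 scored G2/M in the maxillary library were scored G2/M in the mandibular library (89.6%).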

How the results depend on the processing

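The share of scored cells was lower at P1 than at E15.5 in all 56 values computed over both tissues, both jaws and the alternatives (log2 -1.17 to -0.20), of which 45 differed from the reported value, as the other settings changed no cell of that comparison. So were all 40 summed S levels (-1.08 to -0.33) and all 40 summed G2/M levels (-0.89 to -0.12), of which 29 each differed. The alternatives that limited the P1 maxillary library to shared barcodes, left out clusters led by Gm42418 or AY036118, left out epithelium-like clusters led by Cyp2g1, Reg3g or Tmem212, left out the ameloblast-like, odontoblast-like and Dmp1-led cells (the secretory cells below), or left Ube2c and Nusap1 out of the score were chosen after seeing the data. The causes of the changes below were not tested.

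The log2 ratio of shares moved to -0.20 in maxillary epithelium-like and -0.50 in maxillary mesenchyme-like cells with shared barcodes dropped from both P1 libraries, to -0.78 in maxillary mesenchyme-like cells with shared barcodes only, to -0.48 in mandibular epithelium-like cells without the secretory cells, and in mandibular mesenchyme-like cells to -0.58 at a depth of 1000 and 2 UMIs and to -0.53 at 5 UMIs.

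The count of members lower at P1 by 2-fold depended on the threshold. At 1.5-fold it was 14 and 44 in maxillary and mandibular epithelium-like and 20 and 24 in mesenchyme-like cells, against 10.7%, 15.7%, 8.96% and 8.74% of all genes. In maxillary epithelium-like cells (0 members) it was 1 without cells beyond 3 MADs, 2 without ranked doublets, 3 without the clusters led by Cyp2g1, Reg3g or Tmem212 and 5 with shared barcodes only (5.14%, 5.44%, 7.39% and 7.74% of all genes). In mandibular epithelium-like cells (15) it was 5 of the 22 that passed at 50 CPM and 2 without the secretory cells (5.24% and 4.25%). In maxillary mesenchyme-like cells (1) it was 2 without cells beyond 3 MADs, 2 without ranked doublets, 3 with shared barcodes only, and 0 with them dropped from both libraries or without the secretory cells (3.61%, 4.04%, 5.83%, 0.726% and 3.22%). In mandibular mesenchyme-like cells (3) it was 1 with each cell named by its own markers and 0 without the secretory cells (2.43% and 2.58%).

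The summed G2/M level of epithelium-like over mesenchyme-like cells is given next as log2 ratios in the order E15.5 maxillary, E15.5 mandibular, P1 maxillary, P1 mandibular. With each cell weighing the same it was 0.31, 0.34, 0.79 and 0.21. Without cells beyond 3 MADs it was 0.19, 0.13, 0.62 and -0.23. Without ranked doublets it was 0.36, 0.30, 0.65 and -0.20. With each cell named by its own markers it was 0.050, 0.040, 0.27 and -0.30. At P1 it was 0.53 in the maxillary library with shared barcodes dropped from both and -0.042 in the mandibular library with them kept in both, 0.43 and -0.20 without clusters led by Gm42418 or AY036118, and 0.57 and 0.21 without the secretory cells. The P1 mandibular sign therefore turned under 2 alternatives. The summed S level turned in sign to -0.015 (E15.5 maxillary, own markers), 0.14 (E15.5 mandibular, each cell weighing the same) and 0.043 (P1 mandibular, without the secretory cells).

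An analysis of stage paired by jaw was not run. The E15.5 mandibular epithelium-like values rest on few cells, 123 after thinning, with 32 UMIs of Cdc6.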
